A study of Mus musculus with 16 samples.

Results

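The array lists rudhira under the symbol Bcas3. The comparison described here set homozygous rudhira mutant mouse embryos against wild-type embryos across all detected genes. Its members were every array labelled embryo: 8 arrays of 4 RNA samples, out of 16 arrays of 8 RNA samples in the series, whose other arrays hold yolk sacs. Embryos of the C57BL/6J strain came from matings of heterozygotes and were taken at 9.5 days post coitum. The 2 wild-type embryos carried both intact copies of rudhira, and the 2 mutant embryos carried a deletion of exon 6 of rudhira on both copies. The labels name no Cre line or transgene. They name no treatment for any group. Embryo and yolk sac were separated at dissection, and a piece of the embryo's tail was used for genotyping in all groups. The labels describe both mutants as growth retarded with abnormal vascularization and both wild types as normal, so genotype and growth retardation cannot be told apart in this design. Total RNA was turned into biotin-labelled cRNA and hybridized to Illumina MouseWG-6 v2 bead arrays, on which each RNA sample was measured in 2 arrays. These repeat arrays are technical and were averaged, so n is 2 embryos per group throughout, and p-values rest on the spread among these few samples.

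At this stage the neural tube is closing, the earliest neurons are leaving the cell cycle in the brain, spinal cord and ganglia, the heart beats, and primitive red cells from the yolk sac circulate. New somites are still added at the tail end, and Hox genes are switched on along the trunk and tail in the order of their place in each cluster. Rudhira itself is a cytoskeletal protein of endothelial and early blood cells that binds microtubules and intermediate filaments and is known for its role in cell migration and in the remodelling of embryonic vessels.

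Between 17382 and 19576 of 45281 probes were detected on each embryo array, and the repeat arrays of an embryo correlated at 0.997 to 0.998 across genes with a difference of 0.142 to 0.163 (SD, log2). Of 7 tested markers of embryonic tissues, 6 were higher in embryos than in yolk sacs and 5 (Myh6, Actc1, Sox2, Meox1 and Twist1) were detected on all 8 embryo arrays, while Pax3 and Tubb3 were detected on some of them. All 4 probes of Xist, the RNA of the inactive X chromosome, were detected on every embryo array at signals of 349.4 to 1066.8, and 7 of 8 probes of Y-linked genes on none. The last, of Uty, was detected on 2 of 4 mutant and 0 of 4 wild-type arrays. Its signals were near background and close together, at 21.45 and 21.15 in wild types and 19.9 and 22.85 in mutants. By signal the 4 embryos were thus alike in this respect. In bulk RNA, fewer cells of a type and less RNA per cell cannot be told apart.

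The targeted gene did not separate the groups. Of the 2 Bcas3 probes, 1 was not detected on any array. The other gave signals of 331.2 and 390.8 for the wild types, against 270.4 for mutant embryo 1 and 664.2 for the library labelled mutant embryo 2. One mutant signal thus lay below both wild types and the other above both. The log2 difference was 0.21 (SE 0.33, limma adjusted p = 0.880), dropping the library labelled mutant embryo 2 gave -0.37 (adjusted p = 0.924), and the pair named in the series design, wild-type embryo 2 and mutant embryo 1, gave -0.51 (adjusted p = 0.815). Where the probe lies relative to the deleted exon is not known here, so it may check nothing, and a shortened transcript could still be read. In the yolk sacs of the same conceptuses the probe read 233.6 and 278.0 in mutants and 759.4 and 1244 in wild types. These signals are not scaled between arrays. After normalization the yolk sac difference was -1.27 (SE 0.33, limma adjusted p = 0.0989) and did not pass. By signal, the yolk sac from the same conceptus as the library labelled mutant embryo 2 was on the mutants' side. Each direction given below for all 4 embryos draws on that library. Wherever 2 values are given for a genotype, they stand in the order of the embryo numbers.

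Genes bright in yolk sac differed between the embryo libraries, most widely between the 2 wild types. A set of 282 genes (2.49% of those tested) was at least 3 log2 units, or 8-fold, higher in the mean of the 4 yolk sacs than in the mean of the 4 embryos, and 27 of them belong to the list of visceral endoderm, the absorptive outer layer of the yolk sac. Their median level was 4.91 and 6.59 in the wild-type embryos and 5.75 and 6.15 in the embryos labelled mutant, against 9.91 to 10.14 in the yolk sacs. Wild-type embryo 1 was the lowest of the 4 for 264 of these genes and wild-type embryo 2 the highest for 225. The lowest of these medians is a bound, since the arrays of wild-type embryo 1 detected signal from 5.05 and 5.29 upwards. Of the 282 genes 27 were detected on no embryo array and 104 on all 8.

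**Figure D1:**
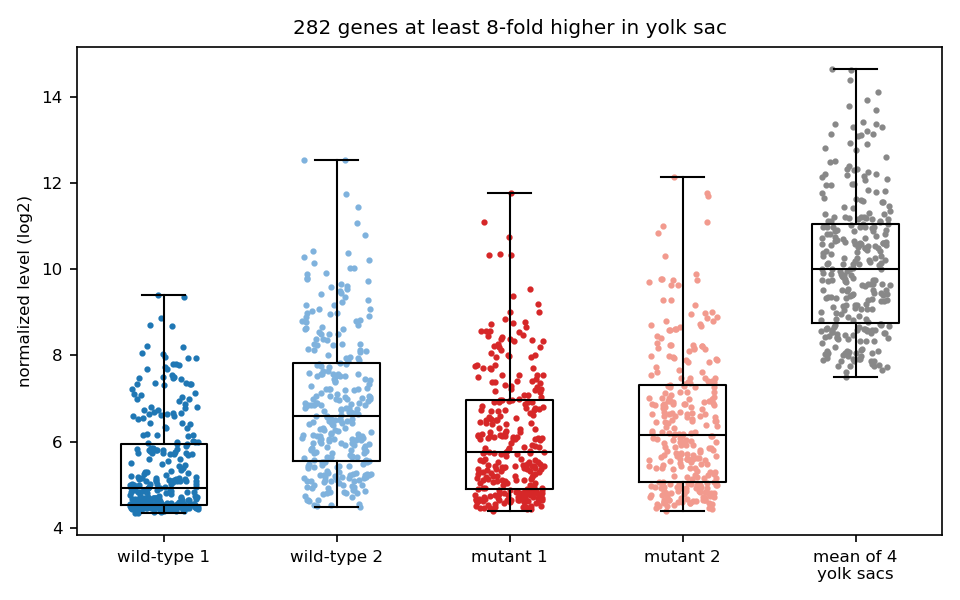
Normalized log2 level of the 282 genes at least 8-fold higher in yolk sac, in each of the 4 embryos and as the mean of the 4 yolk sacs. Points are genes, boxes the quartiles with the median, whiskers the full range. The 2 wild-type embryos stand at the lowest (4.91) and the highest (6.59) median, with both mutant embryos between them.

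Ttr, the thyroid hormone carrier transthyretin, read 7.47 and 12.54 in the wild-type embryos and 11.77 and 12.14 in those labelled mutant. Apoa1, the main protein of high-density lipoprotein, read 6.00 and 12.54 against 11.09 and 11.71. Both genes, like Apom, Apoa2, Spink1 and Dab2, the others of the 6 brightest in yolk sac, were lowest in wild-type embryo 1, and the other wild type reached or passed mutant embryo 1. Of the 282 genes 0 passed the threshold (smallest adjusted p 0.0946, 7 with an unadjusted p under 0.05), and 14 (4.96%) had groups that did not overlap, against 51.9% of all tested genes. These counts are partly fixed by how the set was chosen, since members may pass the detection filter through yolk sac alone and lie at background in embryos, and nothing is read from them. Their median genotype difference was 0.08, but -0.49 without wild-type embryo 1 and 0.60 without wild-type embryo 2. Left out, the 282 genes changed the distance between embryos: the SD of the difference between the 2 wild types fell from 0.34 to 0.17 and that between the 2 mutants from 0.23 to 0.22, while wild types and mutants differed by 0.25 to 0.35. That last comparison was chosen after seeing the data.

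Across the 11329 tested genes, 241 (2.13%) passed an adjusted p of 0.05, of which 69 (0.609% of those tested) rose and 172 (1.52%) fell in mutant embryos. At an unadjusted p under 0.05 there were 1413 genes. The change was at least 2-fold for 86 of the called genes, 25 of them rises and 61 falls. Falls were deeper in the library labelled mutant embryo 2, which lay farther from the wild types than mutant embryo 1 did for 142 of the 172 falls and 48 of the 69 rises. Set against yolk sac, 111 of the 172 falls stood at least 1 log2 unit lower there than in embryos, and 4 at least that much higher. Of the 69 rises, 26 stood at least 1 log2 unit lower in yolk sac and 13 at least that much higher. The same shares over all tested genes were not counted, so nothing is read from these counts.

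Much of this count ended when 1 embryo was left out. Such a fit also has fewer samples and residual degrees of freedom, and how far that alone ends calls was not tested. Without wild-type embryo 1 there were 64 calls, of which 43 were among the 241, without wild-type embryo 2 there were 133 (67 shared), of which 85 were rises and 48 falls, the reverse of the majority in all 4 embryos, without mutant embryo 1 there were 208 (137 shared), and without the library labelled mutant embryo 2 there were 51 (50 shared). All 241 genes had groups that did not overlap, and 26 held their calls whichever embryo was dropped, 22 falls and 4 rises. In the fit without wild-type embryo 2 the yolk sac-bright genes had a median difference of 0.60, against 0.08 with all 4 embryos. Apoa1 and Ttr stood at 5.40 and 4.49 there. How many of the rises of that fit were yolk sac-bright genes was not counted. With the 4 embryos fitted without the yolk sacs 24 genes passed, 4 rises and 20 falls. With the authors' own processed values 0 genes passed, with 1059 at an unadjusted p under 0.05. Among the rises, 13 stood at least 1 log2 unit higher in yolk sac than in embryos (Cdx2, ccdc198, Prss35, Dact2, Plac8, Prdm6, Podxl, Lpar3, F11r, Steap1, Zfp185, Pkp2 and Tor4a). None of these 13 passed without wild-type embryo 1, the lowest library for most of the yolk sac-bright genes, against 12 of all 69 rises, and all 13 kept their direction. The part of yolk sac RNA in those 13 rises was not tested.

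**Figure D2:**
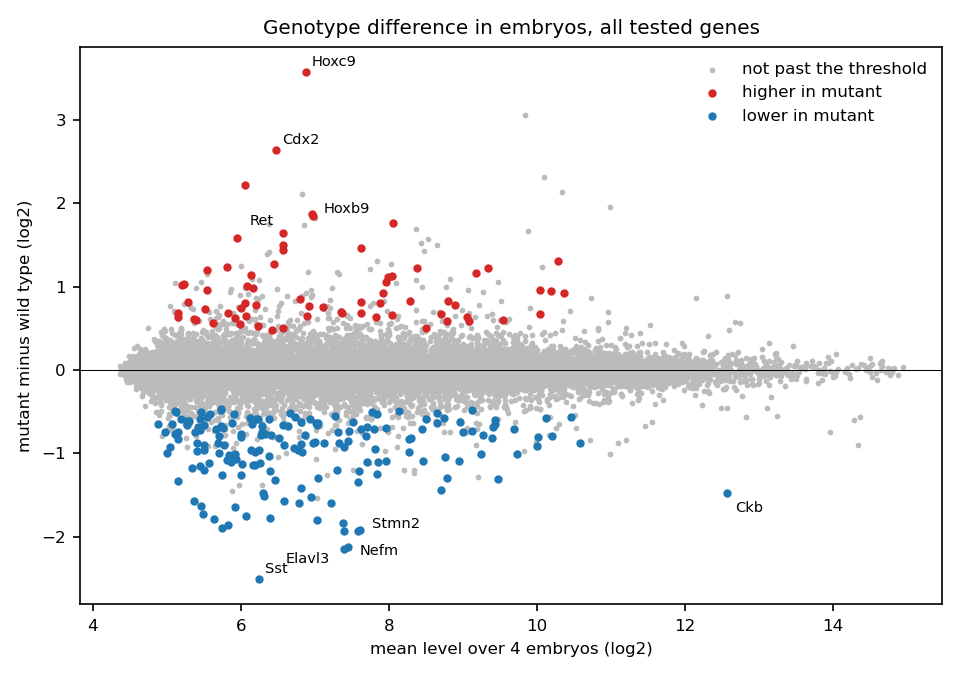
Mutant minus wild-type difference (log2) against the mean level over the 4 embryos (log2) for 11329 genes. Grey points did not pass an adjusted p of 0.05, red points (69) were higher and blue points (172) lower in mutants.

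Many genes that neurons switch on as they mature fell. Of 20 tested genes for the cytoskeleton and RNA-binding proteins of neurons, 10 fell and 0 rose, against 1.52% and 0.609% of all genes, and the median difference was -0.75 where that of all genes was 0.00. Nefm, a neurofilament subunit, stood at 8.40 and 8.60 in the wild-type embryos and at 6.58 and 6.18 in those labelled mutant. Stmn2, which regulates microtubules in growing axons, stood at 8.42 and 8.71 against 6.62 and 6.68. For both genes the wild types lay close together and well above both mutants. The falls were -2.12 for Nefm (SE 0.14, adjusted p = 0.00159) and -1.92 for Stmn2 (SE 0.12, adjusted p = 0.00159).

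Dcx, a microtubule protein of migrating neurons, stood at 6.66 and 6.85 in wild types and was not detected on any mutant array, which made it at least 3.21-fold lower (adjusted p = 0.00159). Elavl3, an RNA-binding protein of newly formed neurons, stood at 8.33 and 8.60 against 6.81 and 5.82, and fell by 2.15 (SE 0.28, adjusted p = 0.0163), with the library labelled mutant embryo 2 the lower of the mutants. Other falls in this list were the stathmins Stmn3, detected on 1 of 4 mutant arrays, and Stmn4, on none of them, the neuronal intermediate filament gene Ina at -1.21, the dendritic microtubule protein gene Map2 at -1.11, Elavl4 at -1.08 and Elavl2 at -0.60. Gap43, of growing axons, did not pass and stood at -0.08, and Nrcam, an adhesion molecule, stood at 0.54. Tubb3, a neuronal tubulin, read 4.98 and 4.84 against 5.25 and 5.14, near background, and did not pass (difference 0.28, adjusted p = 0.385). Cntn2 and Prph were detected on no embryo array, so their difference cannot be read, as for 632 of all tested genes. The calls of Dcx, Nefm, Stmn2, Stmn3 and Stmn4 held whichever embryo was dropped. Calls ended for Elavl2 and Elavl4 without wild-type embryo 1 (adjusted p = 0.0855 to 0.210), for Elavl2 and Elavl3 without wild-type embryo 2 (0.0506 to 0.179), for Elavl2 without mutant embryo 1 (0.122), and for Ina, Map2, Elavl2 and Elavl4 without the library labelled mutant embryo 2 (0.0555 to 0.355).

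Transcription factors that drive neurogenesis moved the same way, with 8 falls and 0 rises among 12 tested and a median of -0.75. Myt1, a zinc finger factor of newborn neurons, stood at 6.14 and 6.19 in wild types, was not detected on any mutant array and was at least 2.13-fold lower (adjusted p = 0.00159). Insm1, which promotes the exit of neural progenitors to neurons, stood at 8.53 and 8.55 against 7.09 and 6.13, a fall of 1.93 (SE 0.27, adjusted p = 0.0186). Neurod4, a proneural factor, stood at 7.67 and 7.51 against 6.49 and 5.50, a fall of 1.59 (SE 0.27, adjusted p = 0.0370). In both, the library labelled mutant embryo 2 was lower than mutant embryo 1 by about 1 log2 unit. Neurod1 was not detected on any mutant array either, Ebf3, Ebf2 and Ebf1, factors of early neuronal differentiation, fell by 1.01, 0.68 and 0.58, and Hes6 fell by 0.82. Neurog2 and Dll1, which act upstream in progenitors, did not pass, at -0.51 and -0.10.

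Myt1 and Neurod1 passed with each embryo left out. The other 6 calls ended without wild-type embryo 1 (adjusted p = 0.0558 to 0.136), 5 of them also without wild-type embryo 2 (0.0541 to 0.164), that of Ebf1 without mutant embryo 1 (0.118), and those of Ebf1, Ebf2, Ebf3 and Hes6 without the library labelled mutant embryo 2 (0.0666 to 0.120).

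Markers of sensory, cranial and motor neurons fell in 5 of 9 cases, with 0 rises and a median of -0.78. Pou4f1, a homeodomain factor of sensory ganglia, stood at 7.25 and 7.31 in wild types and at 5.68 and 5.32 in mutants, and fell by 1.78 (SE 0.13, adjusted p = 0.00193). Lhx4, a LIM homeodomain factor of motor neurons, stood at 6.21 and 6.50, was not detected on any mutant array and was at least 2.43-fold lower (adjusted p = 0.00277). The groups were far apart for both genes, and both passed with each embryo left out. Chrna3, a nicotinic receptor subunit of autonomic ganglia that 2 of 4 mutant arrays detected, fell by 1.20, Phox2a, a factor of cranial motor and autonomic neurons, by 0.86 and Isl1, which marks motor and sensory neurons and heart progenitors, by 0.78. These 3 calls ended without wild-type embryo 1 (adjusted p = 0.0554 to 0.139), and those of Isl1 and Phox2a without wild-type embryo 2 (0.0563 to 0.131) or the library labelled mutant embryo 2 (0.0847 to 0.119).

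The promoters of Pou4f1 and Elavl3 are shown because they belong to the fallen neuronal genes and hold the letters CAGCTG, an E-box form that basic helix-loop-helix factors such as those of neurogenesis can bind. Each run covers 250 bases before to 50 bases after the gene's start as given by RefSeq (GRCm38.p6), 5′ to 3′ on the gene's strand, with CAGCTG in capitals. Pou4f1 lies at chr14:104467950-104468249 on the minus strand and Elavl3 at chr9:22051974-22052273 on the minus strand.
Pou4f1: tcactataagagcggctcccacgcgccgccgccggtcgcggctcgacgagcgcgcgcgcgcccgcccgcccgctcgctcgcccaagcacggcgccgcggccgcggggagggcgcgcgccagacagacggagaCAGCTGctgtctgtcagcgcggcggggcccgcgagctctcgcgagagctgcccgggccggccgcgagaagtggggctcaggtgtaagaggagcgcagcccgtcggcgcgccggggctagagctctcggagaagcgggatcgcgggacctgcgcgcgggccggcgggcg
Elavl3: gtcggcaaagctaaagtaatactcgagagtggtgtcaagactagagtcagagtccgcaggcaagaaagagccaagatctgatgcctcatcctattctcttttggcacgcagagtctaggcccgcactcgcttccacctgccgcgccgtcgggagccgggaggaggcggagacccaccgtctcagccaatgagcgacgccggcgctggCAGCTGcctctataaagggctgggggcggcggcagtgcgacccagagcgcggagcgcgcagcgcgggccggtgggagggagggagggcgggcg
Of the 15 largest falls, 10 had a promoter in the table and 3 of these (Elavl3, Inmt and Pou4f1) held CAGCTG, which 16.3% of all 32851 promoters hold. CAGATG, searched on both strands, was in 1 of the 10 (Fabp7) and in 17.2% of all promoters. A match of letters is a description of the sequence only.

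Neural progenitors and brain regions showed smaller falls. Of 17 tested progenitor genes 6 fell and 0 rose, with a median of -0.39. Fabp7, which binds fatty acids in radial glia, stood at 6.68 and 6.81 against 5.28 and 4.92, and fell by 1.65 (SE 0.13, adjusted p = 0.00295). Zic1, a dorsal neural tube factor, fell by 0.91, Prom1, a membrane protein of neuroepithelial cells, by 0.72 with 2 of 4 mutant arrays detecting it, Hes5, a Notch target that maintains progenitors, by 0.68, and Sox3 by 0.52, while Pou3f3 was not detected on any mutant array and was at least 1.41-fold lower. Sox2, Notch1, Pax6 and Hes1, which progenitors express broadly, did not pass and stood at -0.35, -0.20, -0.07 and 0.03. Fabp7 passed with each embryo left out, and the other 5 calls ended without wild-type embryo 1 (adjusted p = 0.0735 to 0.184) or 2 (0.0645 to 0.218) or the library labelled mutant embryo 2 (0.104 to 0.322), and those of Sox3 and Hes5 without mutant embryo 1 (0.0661 to 0.0995).

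Forebrain and midbrain factors fell in 4 of 15 cases with 0 rises and a median of -0.44. Dlx1, a homeobox gene of the ventral forebrain, stood at 8.21 and 8.31 against 7.34 and 6.49, a fall of 1.35 (SE 0.24, adjusted p = 0.0400). Fezf2, of the anterior forebrain, stood at 8.38 and 8.64 against 7.61 and 7.23, a fall of 1.09 (SE 0.15, adjusted p = 0.0190). Nkx2-1, of the ventral forebrain and also of thyroid and lung buds, fell by 0.80 and Wnt8b by 0.64. Otx2 and Fgf8, which pattern the midbrain and its border with the hindbrain, did not pass, at -0.08 and -0.07.

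In the hindbrain and spinal cord list of 16 genes, 3 fell and 2 rose, with a median of -0.06. Dbx1, which marks an interneuron progenitor domain, stood at 9.45 and 9.41 against 8.28 and 7.68, and fell by 1.45 (SE 0.18, adjusted p = 0.0137). Egr2, a zinc finger factor that patterns hindbrain segments, went the other way: it stood at 5.18 and 5.23 against 6.12 and 6.75, a rise of 1.23 (SE 0.18, adjusted p = 0.0218), and 2 of the 4 wild-type arrays detected it. Olig3 and Nkx2-2, of dorsal and ventral progenitors, fell by 0.88 and 0.59, and Nkx2-9, a ventral factor, rose by 0.75. Shh, Pax3 and Irx3 did not pass, at -0.11, -0.04 and -0.04, and only some embryo arrays detected Pax3. Of these 9 calls in brain and spinal cord all ended without wild-type embryo 1 (adjusted p = 0.0503 to 0.205), all but Dbx1 without wild-type embryo 2 (0.0588 to 0.187), those of Wnt8b and Nkx2-2 without mutant embryo 1 (both 0.0576), and all but Dlx1, Dbx1 and Egr2 without the library labelled mutant embryo 2 (0.0943 to 0.330).

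**Figure D3:**
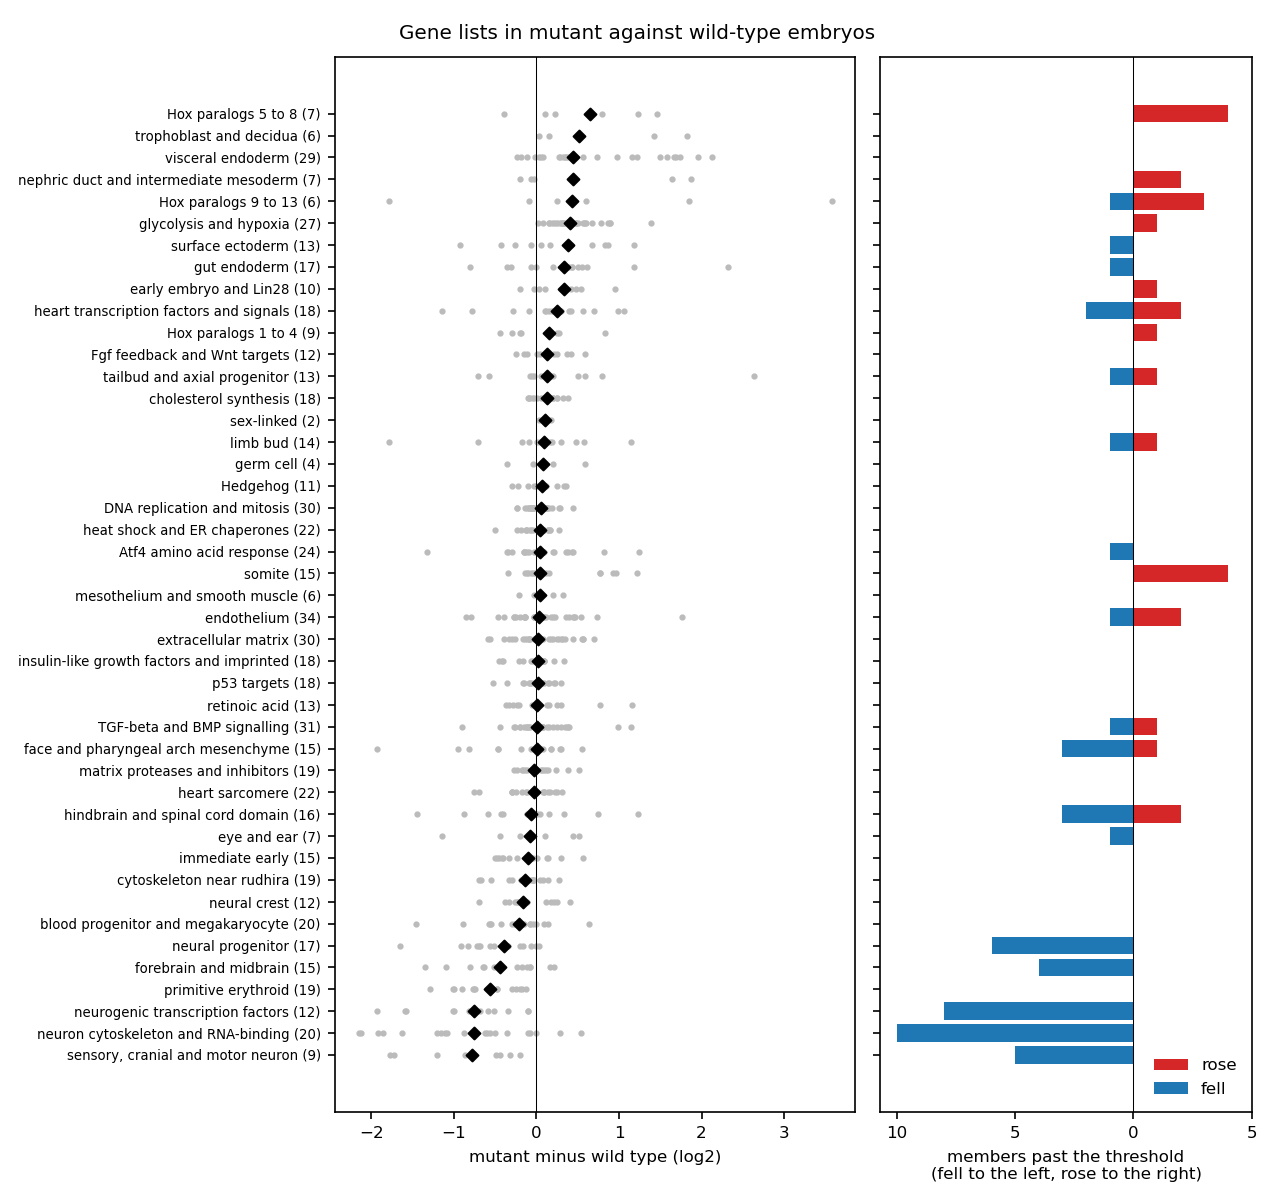
Gene lists in mutant against wild-type embryos, with the number of tested genes in brackets. On the left, grey points are genes and diamonds the list medians of the log2 difference; on the right, bars count members that fell (left, blue) or rose (right, red) at an adjusted p of 0.05. The neuronal lists stand lowest with up to 10 falls, and Hox paralogs 5 to 8 highest with 4 rises.

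Genes of facial mesenchyme moved both ways, and Barx1 was among the 15 largest falls. Barx1, a homeobox gene of the jaw and stomach mesenchyme, stood at 8.32 and 8.41 in wild types and at 6.75 and 6.12 in mutants, and fell by 1.93 (SE 0.19, adjusted p = 0.00699), a call that held with each embryo left out. Alx4 and Prrx1, also of craniofacial mesenchyme, fell by 0.94 and 0.81, and Osr2, of the palate and limb, rose by 0.56, so 3 of 15 genes fell, 1 rose and the median was 0.00. Tbx2, a repressor active in eye, ear and heart, fell by 1.14. Calls for Alx4, Prrx1, Osr2 and Tbx2 ended without wild-type embryo 1 (adjusted p = 0.0701 to 0.204), wild-type embryo 2 (0.0763 to 0.127) or the library labelled mutant embryo 2 (0.0743 to 0.288), and those of Osr2 and Tbx2 without mutant embryo 1 (0.0555 to 0.0638). Of 12 genes of neural crest 0 rose and 0 fell, with a median of -0.17. Sox10, which marks migrating crest cells, stood at 0.25, Tfap2a at 0.17 and the neurotrophin receptor gene Ngfr at -0.69. Of 14 limb bud genes 1 rose, Grem1, and 1 fell, Hoxd10, with a median of 0.09.

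Several trunk Hox genes rose. Of 7 tested genes of paralogs 5 to 8, 4 rose and 0 fell, with a median of 0.65; of 6 tested genes of paralogs 9 to 13, 3 rose and 1 fell, with a median of 0.43; and of 9 genes of paralogs 1 to 4, 1 rose and 0 fell, with a median of 0.16. Of all genes 0.609% rose, and the difference between the Hox groups was not tested. Hoxc9 stood at 4.68 and 5.50 in wild types, where 2 of 4 arrays detected it, and at 8.73 and 8.60 in mutants. Hoxb9 stood at 6.37 and 5.72 against 7.87 and 7.93. Hoxa7 stood at 7.04 and 6.75 against 8.60 and 8.11. In each of these trunk genes both mutants lay above both wild types by at least 1 log2 unit.

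The rises were 3.57 for Hoxc9 (SE 0.37, adjusted p = 0.00880), 1.85 for Hoxb9 (SE 0.19, adjusted p = 0.00857) and 1.46 for Hoxa7 (SE 0.17, adjusted p = 0.0114). Hoxc6 rose by 1.23, Hoxb7 by 0.80, Hoxd8 by 0.65, Hoxa9, which 2 of 4 wild-type arrays detected, by 0.60 and Hoxb1, of the hindbrain and early posterior axis, by 0.83. Within paralogs 4 and 5, Hoxa4, Hoxb5 and Hoxa5 did not pass and stood at -0.44, -0.40 and 0.10. Hoxd10, which the limb bud and posterior spinal cord switch on, went against its neighbours in number: it stood at 6.52 and 6.56 in wild types, was not detected on any mutant array and was at least 2.76-fold lower (adjusted p = 0.00400). Hoxd9 and Hoxc10 did not pass, at -0.09 and 0.25.

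Hoxa7 and Hoxd10 passed with each embryo left out. Calls for Hoxb7, Hoxc6, Hoxd8 and Hoxa9 ended whichever embryo was left out (adjusted p = 0.0637 to 0.209), that of Hoxb1 without wild-type embryo 2 or either mutant (0.0546 to 0.233), and those of Hoxb9 and Hoxc9 without the library labelled mutant embryo 2 (0.0616 and 0.0577). Hoxc9 and Hoxc6 are also read in yolk sac, at 7.34 and 8.16, and the part of yolk sac RNA in their embryo values was not tested, while Hoxb9 and Hoxa7 stood at 4.51 and 4.79 there, near background.

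**Figure D4:**
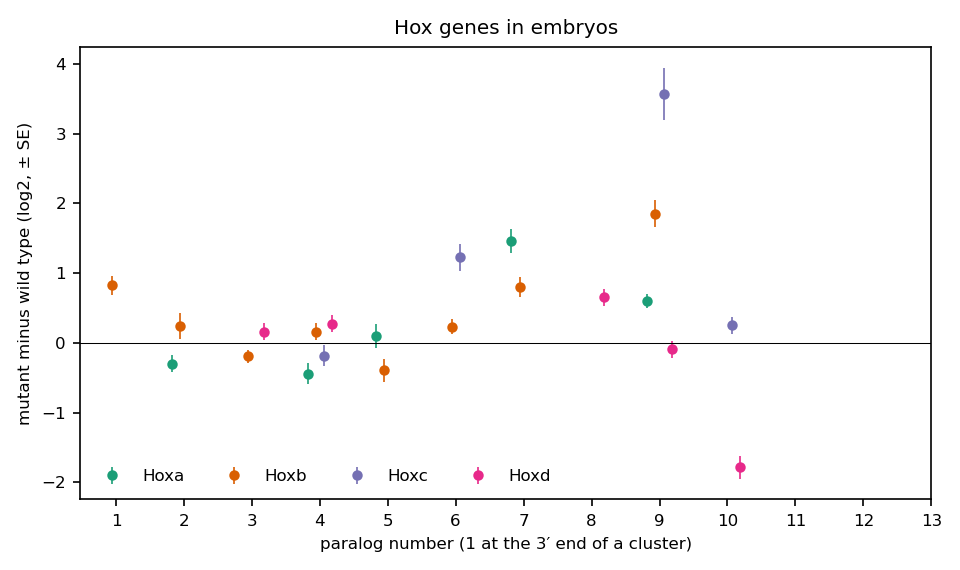
Mutant minus wild-type difference (log2, points) with its standard error (bars) for 22 Hox genes by paralog number, coloured by cluster. Paralogs 6 to 9 of the Hoxa, Hoxb and Hoxc clusters stand above 0, up to 3.57 for Hoxc9, and Hoxd10, undetected in mutants, stands lowest.

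Cdx2, a homeobox factor that sustains posterior growth and acts upstream of trunk Hox genes, stood at 4.59 and 5.71 in wild types and at 7.18 and 8.41 in mutants. Of the wild-type arrays 2 of 4 detected it, and all 4 values differed widely, with both mutants above both wild types. The rise was 2.64 (SE 0.44, adjusted p = 0.0339), and it ended without wild-type embryo 1 (adjusted p = 0.0959) or the library labelled mutant embryo 2 (0.163). In yolk sac Cdx2 stood at 9.38. Of 13 tested tailbud genes 1 rose, Cdx2, and 1 fell, Fgf17, at -0.70, with a median of 0.13. The other probe of Fgf17 stood at -0.31. Sp5, of the tail end, and Cdx1 did not pass and stood at 0.59 and 0.51, Tbx6, of the presomitic mesoderm, did not pass either and was detected on all mutant arrays and on no wild-type array, and Wnt3a and Fgf8, which are expressed at the tail tip, stood at -0.03 and -0.07.

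The promoters of Hoxa7 and Cdx2 are printed as those of a trunk Hox gene and of a regulator of such genes. Both genes rose, and whether Cdx2 acted on Hoxa7 was not tested. Capitals mark TTTATG on either strand, the letters of a site that Cdx proteins can bind, and CAGCTG, and neither run holds both. The window and source are as above. Hoxa7 lies at chr6:52218524-52218823 on the minus strand and Cdx2 at chr5:147307200-147307499 on the minus strand.
Hoxa7: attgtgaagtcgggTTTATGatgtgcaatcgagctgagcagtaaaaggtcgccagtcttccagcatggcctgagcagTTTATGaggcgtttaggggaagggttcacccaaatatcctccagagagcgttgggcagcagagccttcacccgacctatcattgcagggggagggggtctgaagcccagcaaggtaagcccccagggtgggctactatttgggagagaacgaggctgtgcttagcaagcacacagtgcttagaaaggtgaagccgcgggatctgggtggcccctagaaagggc
Cdx2: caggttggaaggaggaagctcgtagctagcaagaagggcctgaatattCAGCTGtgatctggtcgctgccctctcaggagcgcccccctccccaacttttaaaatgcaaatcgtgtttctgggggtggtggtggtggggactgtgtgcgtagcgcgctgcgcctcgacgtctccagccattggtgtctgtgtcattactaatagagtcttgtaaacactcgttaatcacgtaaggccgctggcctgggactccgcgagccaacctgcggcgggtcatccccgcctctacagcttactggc
Among the 15 largest rises 10 had a promoter in the table. TTTATG was in 2 of these 10 (Egr2 and Hoxa7, the latter with 2 copies), in 0 of the 10 matched falls and in 11.9% of all promoters, and CAGCTG was in 1 of the rises (Cdx2). Counts here and above are per gene, while the shares are per promoter. The 10 matched rises had 14 promoters, several of them overlapping ones of Egr2, and the 10 matched falls had 11. A gene with several promoters has more chances to match.

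Some somite and kidney precursor genes rose, and most did not pass. Of 15 tested somite genes 4 rose and 0 fell, with a median of 0.04. Tcf15, a helix-loop-helix factor of epithelial somites, stood at 7.90 and 7.64 in wild types and at 8.93 and 9.05 in mutants, a rise of 1.22 (SE 0.14, adjusted p = 0.0114). Meox1, a homeobox factor of all somites, stood at 9.72 and 9.40 against 10.65 and 10.40, a rise of 0.96 (SE 0.13, adjusted p = 0.0186). Foxc2, of paraxial mesoderm and vessels, rose by 0.92 and Uncx, of the posterior part of each somite, by 0.77. Pax3, Pax1 and Myog, of the muscle and cartilage lineages that somites form later, did not pass, at -0.04, -0.01 and -0.07. Only some embryo arrays detected Pax3. Of the 15 somite genes 11 were detected on all 8 embryo arrays and 1 on none.

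Among 7 genes of the nephric duct and intermediate mesoderm 2 rose and 0 fell, with a median of 0.44. Ret, the receptor tyrosine kinase through which the nephric duct responds to Gdnf, stood at 5.89 and 5.62 against 7.09 and 7.70, a rise of 1.64 (SE 0.19, adjusted p = 0.0114) that held with each embryo left out. Lhx1, which marks early intermediate mesoderm and some interneurons, stood at 5.79 and 6.28 against 7.59 and 8.21, a rise of 1.87 (SE 0.24, adjusted p = 0.0145). Gdnf itself and Osr1 did not pass, at -0.07 and 0.44. Grem1, a secreted BMP antagonist, rose by 1.15. Without the library labelled mutant embryo 2 the calls of Tcf15, Meox1, Foxc2, Lhx1, Fgf17 and Grem1 ended (adjusted p = 0.0597 to 0.195). They also ended for Uncx, Lhx1, Fgf17 and Grem1 without wild-type embryo 1 (0.0554 to 0.111), for Meox1, Uncx, Fgf17 and Grem1 without wild-type embryo 2 (0.0628 to 0.173), and for Meox1 and Uncx without mutant embryo 1 (0.0678 to 0.102).

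Endothelial genes showed little shift in their median, which was 0.03. Among 34 tested 2 rose (5.88%) and 1 fell (2.94%), against 0.609% and 1.52% of all genes. Etv2, a factor that starts the endothelial and blood programme in mesoderm, stood at 7.23 and 7.11 in wild types and at 8.55 and 9.33 in mutants, a rise of 1.77 (SE 0.24, adjusted p = 0.0173). The endothelial adhesion receptor gene Adgrl4, detected on 3 of 4 wild-type arrays, rose by 0.73 and Robo4, a guidance receptor of vessels, fell by 0.86. The core genes of the lineage did not pass: Cdh5 stood at 0.04, Kdr at 0.18, Pecam1 at -0.20, Tie1 at -0.13 and Tek at 0.45. Gja4 and Gja5, gap junction genes of arteries, did not pass either, at -0.79 and -0.39. Of 22 heart sarcomere genes 0 rose and 0 fell, with a median of -0.03. Of 18 heart transcription factors and signals 2 rose, the smooth muscle and heart coactivator Myocd at 0.69 and Wnt2, of the posterior heart field, at 1.06, and 2 fell, Isl1 and Tbx2. The other probes of Myocd stood at 0.05 and 0.45. Etv2, Adgrl4, Robo4, Myocd and Wnt2 lost their calls without either wild-type embryo (adjusted p = 0.0543 to 0.185), all but Etv2 also without the library labelled mutant embryo 2 (0.140 to 0.288), and Adgrl4, Myocd and Wnt2 without mutant embryo 1 (0.0737 to 0.149).

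Genes of primitive red cells were on average lowest in 1 embryo. The mean level of 19 tested erythroid genes was 9.30 and 9.39 for the wild types, 9.24 for mutant embryo 1 and 8.28 for the library labelled mutant embryo 2. Alas2, the erythroid enzyme that begins heme synthesis, stood at 9.85 and 9.85 against 9.41 and 7.72, with a difference of -1.28 (SE 0.46, adjusted p = 0.304). Klf1, the master regulator of red cell genes, stood at 7.86 and 8.17 against 7.96 and 6.55 (difference -0.76, adjusted p = 0.507). For both genes mutant embryo 1 lay closer to the wild types than to the other mutant, and 0 of the 19 passed in either direction. All 19 had a difference below 0, and in 11 both mutants lay below both wild types, against 26.7% of all tested genes. The list median was -0.56, but -0.14 without the library labelled mutant embryo 2 and -0.98 without mutant embryo 1.

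Glycolysis and hypoxia genes had the opposite order, and the same library stood apart. Their mean level was 9.66 and 9.65 for the wild types, 9.84 for mutant embryo 1 and 10.4 for the library labelled mutant embryo 2. All 27 tested genes had a difference above 0, with a median of 0.41, and 1 passed: P4ha2, a collagen prolyl hydroxylase, stood at 8.29 and 8.45 against 8.91 and 9.19, a rise of 0.68 (SE 0.13, adjusted p = 0.0459). Aldoc, a glycolytic aldolase, stood at 5.79 and 5.53 against 6.47 and 7.62 (difference 1.39, adjusted p = 0.0946). Slc2a1, the main glucose transporter of embryonic cells, stood at 12.43 and 12.48 against 12.81 and 13.23 (difference 0.57, adjusted p = 0.201). In these genes mutant embryo 1 was above the wild types by a small step and the other mutant by a larger one. The call of P4ha2 ended whichever embryo was dropped (adjusted p = 0.0524 to 0.326), and the list median was 0.13 without the library labelled mutant embryo 2.

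Several lists gave no calls at all. Of all tested genes 2.13% passed, so 0 calls in lists of this size lie near that share. Nothing is read from these counts of 0 or from those of the other lists without calls. There were 0 rises and 0 falls among 30 genes of DNA replication and mitosis (median 0.05), 22 of heat shock and the endoplasmic reticulum (0.04), 18 targets of p53 (0.02), 18 of cholesterol synthesis (0.12), 30 of extracellular matrix (0.02), 19 of matrix proteases and their inhibitors (-0.03) and 18 of insulin-like growth factors and imprinted genes (0.02). The 19 genes of the cytoskeleton near which rudhira acts gave 0 calls with a median of -0.13. Vim, the intermediate filament vimentin, stood at 11.74 and 11.85 against 11.25 and 11.00 (difference -0.67, adjusted p = 0.0835), and Tubb2b, a tubulin of neurons, at 13.49 and 13.53 against 12.99 and 12.93 (difference -0.55, adjusted p = 0.0569). Their groups did not overlap, as for 51.9% of all genes, and neither passed. The other kept probes of Tubb2b, less bright than the one tested, stood lower, at -0.86 to -0.75. Of 31 genes of TGF-beta and BMP signalling 1 rose, Grem1, and 1 fell, Id4, an inhibitor of helix-loop-helix factors, at -0.90, with a median of 0.00. Of 24 genes of the Atf4 response to amino acid shortage 1 fell, the pseudokinase gene Trib3 at -1.32, with its other probes at -0.67 and -0.32. Of 10 genes of the early embryo 1 rose, Lin28a, an RNA-binding protein that is high in young embryos and declines later, which stood at 9.84 and 9.57 against 10.51 and 10.81 (0.95, SE 0.14, adjusted p = 0.0233). The calls of Lin28a and Id4 ended without the library labelled mutant embryo 2 (adjusted p = 0.164 and 0.0577), and those of Lin28a and Trib3 without either wild-type embryo (0.0554 to 0.142).

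Epithelial, endodermal and extraembryonic lists held 2 calls in all. Of 13 surface ectoderm genes 1 fell, the signalling gene Wnt7b, which stood at 7.87 and 7.85 against 7.14 and 6.74 and fell by 0.92 (SE 0.13, adjusted p = 0.0193), and the list median was 0.38. That call ended without either wild type (adjusted p = 0.0878 and 0.0679) or the library labelled mutant embryo 2 (0.0712). Of 17 gut endoderm genes 1 fell, Nkx2-1, with a median of 0.34. That median was 0.18 without wild-type embryo 1 and 0.37 without wild-type embryo 2. The mean level of the 17 genes was 7.01 and 7.41 in wild types and 7.49 and 7.64 in mutants. The list includes Spink1, which is bright in yolk sac. The 29 tested visceral endoderm genes gave 0 calls and a median of 0.45, which was -0.88 without wild-type embryo 1 and 2.30 without wild-type embryo 2; their mean level was 5.54 and 8.69 in wild types and 7.56 and 8.07 in mutants. The 6 genes of trophoblast and decidua gave 0 calls with a median of 0.52, and 20 genes of blood progenitors and megakaryocytes gave 0 calls with a median of -0.21. Of these 6 genes 2 were detected on no embryo array and 1 on all 8. Among the 20 genes 6 were detected on none and 8 on all 8, so both medians rest partly on background. Lists of retinoic acid (median 0.01), Hedgehog (0.07), Fgf and Wnt (0.13), immediate early (-0.10), mesothelial and smooth muscle (0.04) and germ cell (0.08) genes also gave 0 calls.

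Other genes among the 15 largest changes each way did not come from these lists. Sst, the peptide hormone somatostatin of neurons and endocrine cells, stood at 7.26 and 7.74 in wild types and at 4.86 and 5.12 in mutants, where 2 of 4 arrays detected it, and fell by 2.51 (SE 0.17, adjusted p = 0.00159). Inmt, a methyltransferase, was not detected on any mutant array and was at least 3.07-fold lower. Crym, a thyroid hormone-binding crystallin, stood at 7.91 and 7.95 against 6.13 and 6.12, and fell by 1.80 (SE 0.10, adjusted p = 0.00159). These 3 passed with each embryo left out. The long noncoding RNA Pantr1 fell by 1.84 and Zic4, detected on 2 of 4 mutant arrays, by 1.75, with other Zic4 probes at -1.34 and -0.81.

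Ifitm1, a transmembrane protein of early mesoderm and germ cells, stood at 9.64 and 9.62 against 10.66 and 11.22 and rose by 1.31 (SE 0.20, adjusted p = 0.0222), with its other probes at 1.39 and 2.65. Col9a3, a collagen of notochord and cartilage, rose by 1.27, Lrrc40 by 1.50 and Dact2, a modulator of Wnt and TGF-beta signals, by 1.45. The other probe of Dact2 stood at 0.21. Prss35 rose by 1.58 and ccdc198 by 2.22, differences from a wild-type level near background, as 2 and 1 of 4 wild-type arrays detected them. All of these genes had both mutants on 1 side of both wild types, which the choice of called genes favours. Among the rises, Lrrc40 lost its call with any embryo left out (adjusted p = 0.0628 to 0.115), ccdc198 and Prss35 without wild-type embryo 1 (0.0735 and 0.0910), and Dact2, Ifitm1 and Col9a3 without the library labelled mutant embryo 2 (0.0947 to 0.104), Dact2 and Ifitm1 also without wild-type embryo 1 (0.0745 and 0.0843), and Ifitm1 and Col9a3 without wild-type embryo 2 (0.0737 and 0.0510). Pantr1 and Zic4 did not pass without either wild type (0.0508 to 0.0688). Ckb, the brain creatine kinase, was named after its values were seen as the called gene of highest mean level: it stood at 13.26 and 13.34 against 12.16 and 11.48, and fell by 1.48 (SE 0.26, adjusted p = 0.0380).

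**Figure D5:**
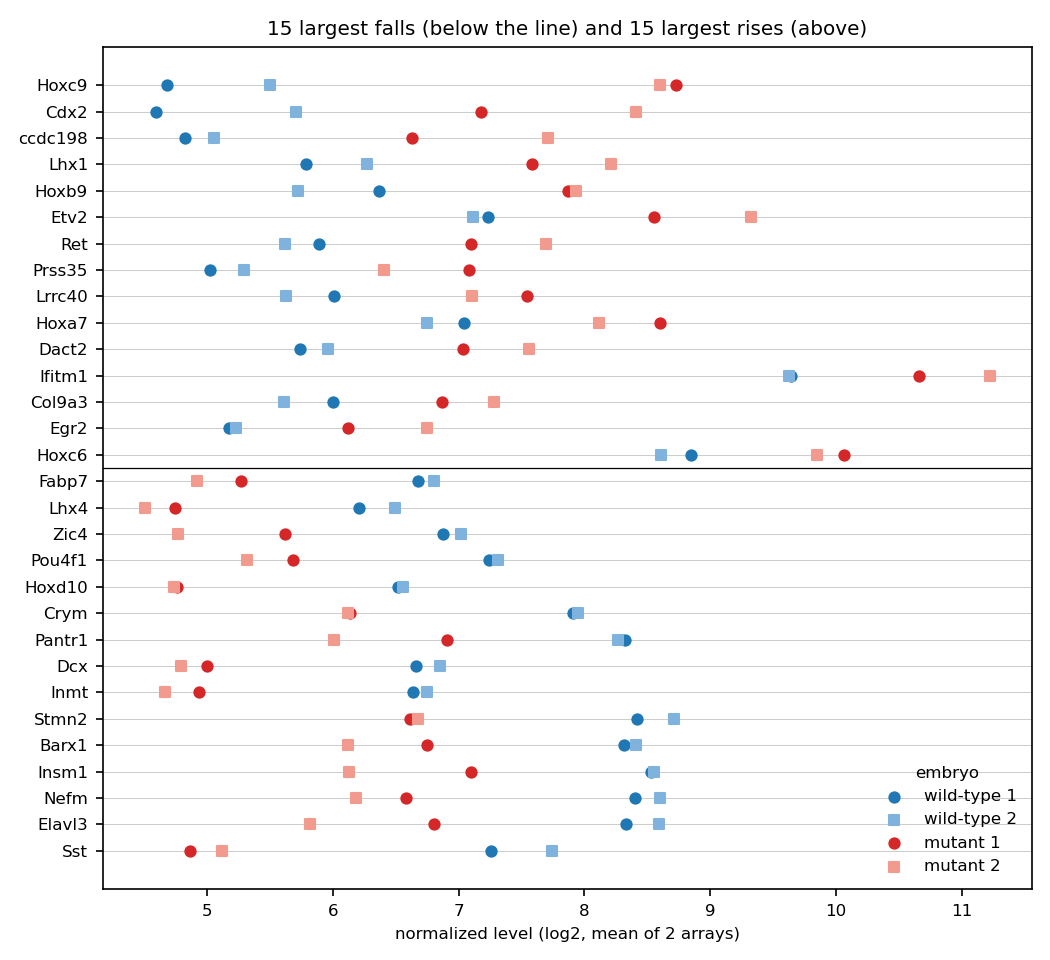
Normalized log2 level (mean of 2 arrays) in each of the 4 embryos for the 15 genes with the largest rises (above the line) and the 15 with the largest falls (below) among those past the threshold. Blue marks are wild types and red marks mutants, and in each gene the colours do not overlap, from Hoxc9 at a difference of 3.57 to Sst at -2.51.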

How the data were processed

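RNA of 4 mouse embryos and 4 yolk sacs was measured on bead arrays, 2 arrays per RNA sample, and grouped by genotype and tissue labels. The deposited signals are probe intensity values on a linear scale, with 28.1% to 32.7% of values per array below 0 and 75th percentiles that differ between arrays. They were therefore taken as background subtracted and not yet scaled, and the software is not given in the sources used here. Beside each signal the authors deposited a score from 0 to 1 headed as a p-value, whose rows did not follow the signals (Spearman correlation 0.00157 to 0.0106). Scores were reassigned so that, on every array, their ranks follow those of the signals, and 1 minus the score was read as a detection p, an assumption the sources do not settle. The authors also deposited processed values, which set against the signals were log2 values centred per probe within a tissue, and which served as an alternative only. No value column was left unmatched to a sample (0), and 20 columns were empty.

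Of 45281 probes 34885 carried 1 gene symbol, 18 several and 10378 none; 34881 symbols were found in the GRCm38.p6 gene table, 29 after an update. Probes detected at p under 0.05 on at least 4 of 16 arrays were kept (21193), the brightest kept probe standing for a gene, which gave 11329 tested genes of 19038. Signals were normalized with neqc (background from the matched scores, normexp offset 16, quantile, log2) in limma 3.58.1 under R 4.3.3. Repeat arrays were averaged and 1 mean per group was fitted to all 8 samples (lmFit, eBayes; 4 residual and 3.36 prior degrees of freedom), so that yolk sacs share in the estimate of spread. Tests were two-sided, with Benjamini-Hochberg adjustment over all genes and a threshold of 0.05. With 2 against 2 samples no exact permutation test can reach that threshold. A gene not detected on any array of a group is given by a bound against the lowest detected level. With 1 embryo left out, the lone embryo of a genotype was assumed to vary like the other groups. The script was tested on simulated data.

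Named genes were Bcas3, the 15 largest rises and falls past the threshold with groups that do not overlap, the 4 largest called changes of each list (or, without calls, the 2 smallest adjusted p), the 6 genes brightest in yolk sac among those at least 3 log2 units higher there, and sex-linked genes; further list members are given as examples. The groups compared, gene lists and rules were chosen with earlier results of these data known. Embryos numbered 1 in both genotypes correlated at 0.191 in their deviations from the group means, with only 2 pairs and no shared origin in the labels, so numbers were not taken as pairs. Alternatives were other background offsets, scalings, filters, probe rules, single arrays, blocks, embryos alone and left-out embryos. The number of arrays limits the precision of every value.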

Additional observations from a re-analysis of the deposited data

Results flagged for a closer look

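Igf1, a growth factor of mesenchyme, differed between the tissues in its genotype effect. In embryos it stood at 6.86 and 6.93 in wild types and at 6.57 and 6.42 in mutants, a difference of -0.40 that did not pass (adjusted p = 0.243), while in yolk sacs the difference was 1.10. The test of the difference itself, embryo minus yolk sac, gave -1.50 (SE 0.18, limma interaction adjusted p = 0.0330). The test was asked of the 53 named genes detected on at least 2 arrays in each of the 4 groups of embryos and yolk sacs, of which Igf1 alone passed. Of all 117 named genes 15 passed, and the other 14, all called in embryos, were detected on fewer arrays in at least 1 group: Inmt, Stmn2, Crym, Sst, Nefm, Myt1, Isl1, Dcx, Lhx4, Pou4f1, Hoxd10, Fabp7, Id4 and Barx1 (adjusted p = 0.0103 to 0.0493). Among all tested genes 38 passed. With 2 samples per group no embryo could be tested as standing apart from its group.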

How the results depend on the processing

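The count of 241 genes was 163 to 265 with an offset of 50 (222), scaling by the 75th percentile (177), detection on 8 arrays (169) or on 2 embryo arrays (265), no filter (206), the mean of a gene's probes (244) and the first arrays only (163), and it was 240 with the conceptus as a random block. With the replicate block it was 174 (52 rises and 122 falls); the numbers are not known to pair embryos. The count was 128 with the second arrays only, 24 with embryos fitted alone (4 rises and 20 falls), 24 with embryo arrays normalized and fitted alone (3 and 21), 24 in the pair named by the series design (2 and 22) and 0 with the authors' processed values, where 1059 genes had an unadjusted p under 0.05 and all tested genes had a median of 0.09. Leaving out 1 embryo gave 51 to 208. Without wild-type embryo 2 rises outnumbered falls, in a fit where the yolk sac-bright genes had a median difference of 0.60. With the 282 yolk sac-bright genes left out, 282 genes passed (85 rises and 197 falls). Fewer samples or residual degrees of freedom enter the fits of embryos alone, of the pair, with 1 embryo left out and with the replicate block. How far this alone lowers their counts was not tested, nor was the cause for the other settings.

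Of 69 named called genes 14 passed with each embryo left out, and 11 to 13 passed with embryos normalized alone, fitted alone or in the pair. The median of the yolk sac-bright genes was 0.03 to 0.43 over the settings with all 4 embryos, -0.49 to 0.60 with 1 left out and -0.66 in the pair. Bcas3 reversed to -0.51 in the pair and to -0.37 when the library labelled mutant embryo 2 was dropped, and ranged from -0.37 to 0.80 with 1 embryo left out. Without wild-type embryo 1 and in the pair, Apoa1 reversed to -1.14 and -1.45, Apoa2 to -1.87 and -2.06, Apom to -1.04 and -1.42, Dab2 to -0.22 and -0.48, Lrp2 to -0.0316 and -0.0631 and Ttr to -0.58 and -0.76, and in the pair Spink1 to -0.33 and Stard4 to -0.11. With 1 embryo left out the highest values were 5.40 for Apoa1, 2.45 for Apoa2, 4.38 for Apom, 1.17 for Dab2, 0.929 for Lrp2 and 4.49 for Ttr. Xist reversed to -0.0860 with the mean of its probes and ranged from -0.11 (without wild-type embryo 2) to 0.455 with 1 embryo left out, and Uty, near background, to -0.000416 with the 75th percentile and -0.0381 with the second arrays. The calls rest on 2 embryos a group, on matched detection scores and on a spread shared with yolk sacs.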

Other observations

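Single genes separated embryos of 1 genotype. Pdxdc1 read 8.96 and 8.95 for the wild types, 5.78 for mutant embryo 1 and 9.65 for the library labelled mutant embryo 2, and Emb, which encodes the cell surface protein embigin, read 10.08 and 6.52 in wild types against 11.46 and 11.28 in mutants. Mid1, an X-linked microtubule-associated ligase, read 5.72 and 5.81 for the wild types, 6.39 for mutant embryo 1 and 9.36 for the library labelled mutant embryo 2. Prl2c2, a placental hormone of trophoblast giant cells, read 4.62 in wild-type embryo 1 and 7.55 to 8.20 in the other embryos. None of these genes passed the genotype test (adjusted p = 0.423 to 0.809).

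The 2 mutants also differed from each other in single genes of the response to low oxygen, of red cells and of the heart. Ddit4, an inhibitor of growth signalling that low oxygen induces, read 8.78 and 8.87 for the wild types, 8.60 for mutant embryo 1 and 10.62 for the library labelled mutant embryo 2. Bhlhe40, Vldlr and Stc1 were higher in that library than in mutant embryo 1 by 1.75, 1.46 and 1.41. The adult-type globin gene Hbb-bt and Nppb, a natriuretic peptide of the heart, differed by -2.12 and -1.98 in the same direction of subtraction. These genes were chosen after their values were seen, and the values compare 2 embryos with no replicate.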
